A study of Mus musculus with 76 samples.

Results

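Divergent promoter long non-coding RNAs are transcripts that start beside a protein-coding gene and run away from it on the other strand. A gene was counted as one when GENCODE M21 gave it a long non-coding biotype, when its start lay within 1000 bases of the start of an opposite-strand coding gene, and when its mean level over all 76 libraries was at least 2 CPM (the count of a gene scaled to a common library total). Well-studied RNAs such as the Snhg genes, Gas5, Malat1 and Neat1 were left out by name. The rule gave 134 lncRNAs of the 49585 genes in the count tables, each paired with 1 of 134 distinct coding partners. Without the CPM limit, 1166 genes met the position rule.

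Most mammalian promoters that drive a coding gene also fire in the opposite direction. The upstream transcript is usually short-lived: early polyadenylation signals end it, and the nuclear RNA exosome degrades it from the 3′ end. The exosome is a ring of inactive subunits that relies on catalytic subunits, of which DIS3 works in the nucleoplasm and EXOSC10 (the counterpart of yeast Rrp6) is enriched in the nucleolus. Adaptor complexes such as NEXT and PAXT deliver capped and polyadenylated nuclear RNAs to it. In the fetal liver, the main site of red cell formation at this stage, erythroid precursors pass through stages labelled S0 to S5 here, in which chromatin condenses and most transcription shuts down.

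Stranded, ribosomal RNA-depleted total RNA was sequenced from livers of C57BL/6NJ mouse embryos at embryonic day 14.5. The libraries came from wild-type (WT) and knockout (KO) embryos of a line labelled dis3 and a line labelled exs10, and the study asks which genes and non-coding RNAs DIS3 and EXOSC10 regulate while red cells mature. Each line has whole liver ("total") and sorted S0, S1, S2, S3 and pooled S4 and S5 cells, so that 12 KO against WT comparisons can be made. The alleles, any Cre driver and the number of embryos behind a library are not given in the sources used here. Libraries of a group that differed by no more than sampling noise were added together and treated as 1 sample. This gave 52 samples: 2 WT and 2 KO samples in every sorted comparison, 4 WT and 2 KO in dis3 total liver, and 3 WT and 3 KO in exs10 total liver. Nothing in the labels says that samples came from separate embryos, so p-values measure the spread between these samples, which may be technical.

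Sample totals ran from 4662194 to 45490475 counts. In the dis3 line, Dis3 measured 51.5 to 53.2 CPM in WT against 25.6 to 28.2 CPM in KO S0 cells (log2 fold change −0.95, edgeR adjusted p = 0.000106), and it was called lower in S1, S2 and S3. It was not called in S4 and S5 (log2 −0.68, edgeR adjusted p = 0.134), nor in total liver (log2 −0.25, edgeR adjusted p = 0.245), where WT samples spanned 29.8 to 49.9 CPM and KO samples 31.7 to 32.4 CPM. Exosc10 was called lower in all 6 comparisons of the exs10 line, with 58.4 to 66.8 CPM in WT against 15.4 to 18.4 CPM in KO S0 cells (log2 −1.90, edgeR adjusted p = 0.000136). The sum of 6 late erythroid markers went from 31.5 to 35.3 CPM in WT S0 cells to 49742 to 54270 CPM in WT S4 and S5 cells of the dis3 line, and the sum of 4 progenitor markers went from 1362 to 1388 CPM to 164 to 166 CPM.

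The members were a mixed set by annotation. By biotype, 50 were antisense, 38 processed transcripts, 27 lincRNAs, 18 bidirectional promoter lncRNAs and 1 sense intronic. The median distance between the starts of lncRNA and partner was 245 bases; 62 pairs lay within 200 bases and 99 within 500 bases. In 73 pairs the starts were apart, and in 61 the transcripts overlapped at their 5′ ends. The longest annotated transcript had a single exon in 55 members and more in 79. Exons of other transcripts of the same gene were not counted. Mean levels ran from 2.00 to 234 CPM with a median of 3.80 CPM. Just outside the limit were Gm47079 beside Icam5 (1.985 CPM), 8430429K09Rik beside Rnf185 (1.991 CPM) and E230029C05Rik beside Eed (1.998 CPM). Just inside were A230072C01Rik beside Uxt (2.003 CPM), 2700046G09Rik beside Sgms1 (2.004 CPM) and Gm12932 beside Meaf6 (2.011 CPM).

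Promoter windows of 3 members show what such a pair looks like in sequence. They are RefSeq windows of 300 bases on build GRCm38.p6, printed 5′ to 3′ on the strand of the lncRNA, with the bases between the start of the coding gene and the start of the lncRNA in capitals. The first belongs to the most abundant member that rose in dis3 S0 cells, the second to a member that rose in both lines, and the third to an abundant member that was not called in S0 cells of either line. The annotated genes lie at chr7:92734166-92741468 (2 exons), chr5:52190672-52279034 (4 exons) and chr11:86201370-86304443 (2 exons) on GRCm38, with exons of the longest transcript.
4632427E13Rik and Rab30, chr7:92741410-92741709, minus strand: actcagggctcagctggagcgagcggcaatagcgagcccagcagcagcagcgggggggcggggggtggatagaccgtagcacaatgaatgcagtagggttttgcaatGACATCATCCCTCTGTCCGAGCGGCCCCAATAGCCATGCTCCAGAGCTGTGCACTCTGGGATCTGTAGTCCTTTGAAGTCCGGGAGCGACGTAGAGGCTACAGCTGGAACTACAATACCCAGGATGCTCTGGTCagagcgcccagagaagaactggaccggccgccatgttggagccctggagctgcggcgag
9230114K14Rik and Dhx15, chr5:52190497-52190796, plus strand: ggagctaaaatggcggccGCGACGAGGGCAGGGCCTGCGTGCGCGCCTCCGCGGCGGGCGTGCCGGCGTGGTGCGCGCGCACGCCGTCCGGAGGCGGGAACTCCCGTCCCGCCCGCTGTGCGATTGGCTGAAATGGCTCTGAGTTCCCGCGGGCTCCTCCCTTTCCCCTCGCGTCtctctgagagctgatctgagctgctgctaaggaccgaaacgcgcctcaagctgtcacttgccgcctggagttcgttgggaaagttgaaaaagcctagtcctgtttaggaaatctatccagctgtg
Brip1os and Brip1, chr11:86201144-86201443, plus strand: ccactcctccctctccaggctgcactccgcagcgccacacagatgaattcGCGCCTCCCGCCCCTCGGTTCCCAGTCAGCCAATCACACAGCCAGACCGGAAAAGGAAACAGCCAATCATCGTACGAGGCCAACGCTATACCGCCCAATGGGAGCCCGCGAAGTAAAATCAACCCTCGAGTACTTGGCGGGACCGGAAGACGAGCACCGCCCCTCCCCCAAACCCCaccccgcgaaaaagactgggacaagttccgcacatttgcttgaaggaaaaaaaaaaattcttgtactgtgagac
The starts are separated by 134 bases in the first window, 157 in the second and 176 in the third. A CCAAT box occurs 1 time in the first and second windows and 3 times in the third, with both strands searched. GGGCGG, the core of a GC box, also occurs 1, 1 and 3 times, and none of these windows holds TATAAA. Of the 72 members with a RefSeq window, 62.5% held GGGCGG, 34.7% CCAAT and 2.78% TATAAA. Among all 32851 windows in the table the shares were 35.7%, 37.4% and 13.6%. Windows of members had a median GC content of 66.7% and a median observed over expected CpG ratio of 0.88, against 52.7% and 0.38 over all windows. The windows of 109 coding partners had medians of 64.7% and 0.87. Of these, 75.2% held GGGCGG, 34.9% CCAAT and 3.67% TATAAA, so the contrast with all windows is not particular to the members. A match is only a description of these letters. At the other end, AATAAA stood in the last 50 bases of the longest transcript of 49.3% of members, 56.8% of coding genes and 32.1% of the other annotated lncRNAs.

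In the dis3 line, divergent lncRNAs were higher in KO than in WT cells of every sorted population. The CPM limit averages KO with WT libraries, so it favours lncRNAs that are high in the KO: 44 members stayed under 2 CPM in the WT libraries of both lines. The counts over all 134 are therefore a description. A choice that used no library of the dis3 line, a mean of at least 2 CPM in the WT libraries of the exs10 line, kept 84 of the members. Of these, 55 rose and 1 fell in S0 cells among 80 tested (edgeR adjusted p under 0.05, median log2 fold change 1.65), where 18% of all genes tested rose and 13% fell. In S1 cells 52 of 82 rose and 4 fell (median 1.21; 20.6% and 19.4% of all genes). In S2 cells 46 of 83 rose and 1 fell (median 1.09; 10.3% and 4.8% of all genes). For pooled S4 and S5 cells 52 of 80 rose and 6 fell (median 1.36; 23.4% and 23.7% of all genes).

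The shift was smaller in S3 cells and in total liver of the dis3 line. In S3 cells 34 of these 83 rose and 8 fell, with a median of 0.39, against 16.3% and 15.9% of all genes. In total liver 26 of 84 rose and 16 fell, with a median of 0.21, against 26.5% and 24.2% of all genes, a share of rises near the background. Bulk RNA cannot tell fewer cells of a type from less RNA per cell. In dis3 total liver 6 of 6 hepatocyte markers rose and 6 of 6 late erythroid markers fell. The summed hepatocyte markers went from 44573 to 51065 CPM in WT to 99856 to 102637 CPM in KO samples, and the late erythroid markers from 13025 to 15177 CPM to 5842 to 7917 CPM; their part in the total liver result was not tested.

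Over all members, the counts were 105 higher and 1 lower of 130 in S0, 99 and 4 of 132 in S1, 87 and 1 of 132 in S2, 65 and 8 of 132 in S3, 96 and 6 of 130 in S4 and S5, and 64 and 16 of 134 in total liver. The medians were 2.30, 1.85, 1.53, 0.77, 1.89 and 0.51 in the same order. With no CPM limit, 351 rose and 1 fell among the 504 lncRNAs of the position rule tested in S0 cells (median 2.38). The other 245 lncRNAs of at least 2 CPM, which start elsewhere, showed 102 rises and 9 falls among 229 tested in S0 cells (median 0.42). With so few samples, complete separation of the genotypes was common. Among the members chosen without the dis3 line, all KO samples lay above all WT samples for 66 of 80 in S0 (34.4% of all genes tested), 67 of 82 in S1 (35.1%), 67 of 83 in S2 (30%), 44 of 83 in S3 (32.9%), 58 of 80 in S4 and S5 (36.8%) and 36 of 84 in total liver (31.2%).

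**Figure D1:**
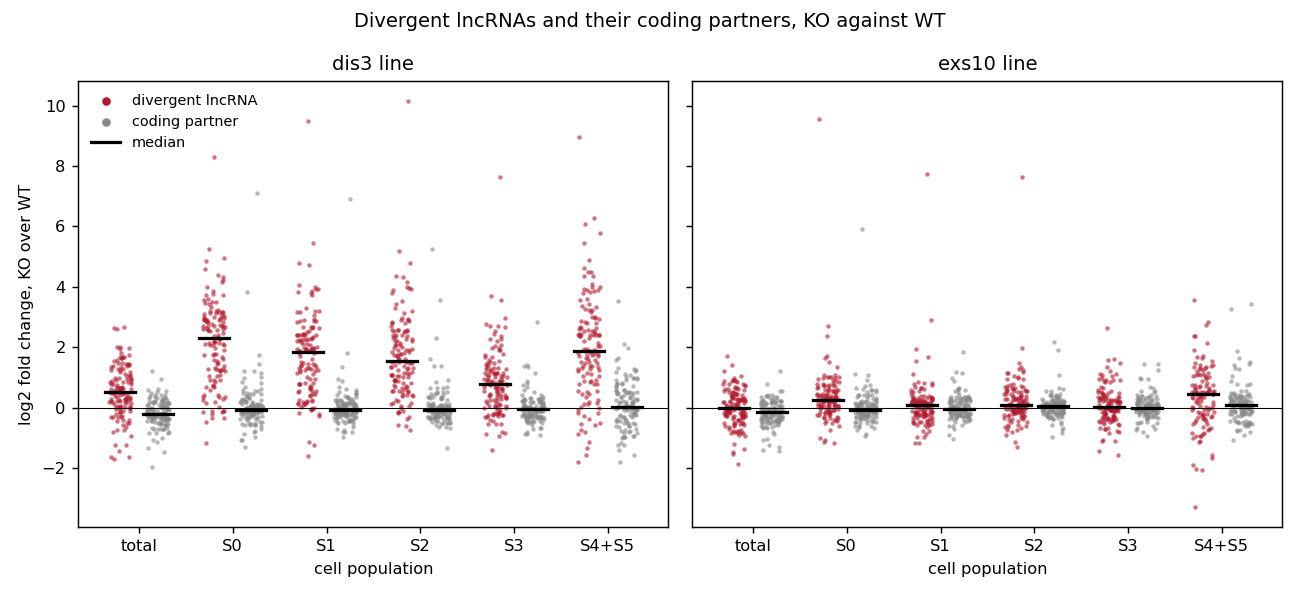
Each point is a divergent lncRNA (red) or its coding partner (grey), with the log2 fold change of KO over WT on the vertical axis, for the 6 cell populations of the dis3 line (left) and the exs10 line (right); black bars are medians. The red medians of the dis3 line run from 0.51 in total liver to 2.30 in S0 cells, while those of the exs10 line run from −0.02 to 0.44; the highest red point in each sorted population of the dis3 line and in S0, S1 and S2 cells of the exs10 line is A930001C03Rik, whose WT level was at or near 0, so that its fitted value is no measure of size. In exs10 S3 and pooled S4 and S5 cells it was not tested, and the highest point is 5031434O11Rik (log2 2.65 and 3.57).

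Added over the 134 members, the divergent lncRNAs took 1306 and 1217 CPM in the WT samples of dis3 S0 cells and 3647 and 3664 CPM in the KO samples. For S4 and S5 cells the sums were 821 and 784 CPM in WT against 2263 and 2151 CPM in KO. S3 cells changed less, from 1197 and 1214 CPM to 1587 and 1610 CPM. The median member stood at 3.09 and 2.71 CPM in WT against 14.8 and 15.8 CPM in KO S0 cells. KO samples were above WT samples in each of these sums. All members enter the sums and medians, and the CPM limit favours lncRNAs that are high in the KO. Their size is therefore a description, partly set by the choice.

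4632427E13Rik, which shares its promoter with Rab30, a small GTPase of the Golgi, was the most abundant member that rose. In dis3 S0 cells it measured 61.6 and 51.1 CPM in WT against 387 and 383 CPM in KO (log2 2.77 ± 0.11 SE, edgeR adjusted p = 6.17e-08). WT and KO samples were far apart, and the KO samples nearly equal. It rose in each sorted population, to 355 and 322 CPM from 52.2 and 42.6 CPM in S4 and S5 cells and to 162 and 168 CPM from 60.9 and 69.7 CPM in S3 cells. The smallest difference was in total liver, with 28.9 to 39.3 CPM in 4 WT samples and 75.1 and 49.8 CPM in KO (log2 0.94, edgeR adjusted p = 7.52e-05).

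AI480526, beside Setd1b, which encodes a histone H3 lysine 4 methyltransferase, measured 26.7 and 23.5 CPM in WT against 140 and 139 CPM in KO S0 cells (log2 2.47, edgeR adjusted p = 8.02e-08). 5031425E22Rik, beside the chromatin regulator gene Kmt2e, went from 22.35 and 18.14 CPM to 96.1 and 85.6 CPM (log2 2.17, edgeR adjusted p = 6.75e-07). D030028A08Rik, beside Cdk5rap3, whose protein takes part in protein UFMylation, went from 27.2 and 29.5 CPM to 64.8 and 74.1 CPM (log2 1.29, edgeR adjusted p = 1.31e-05). No KO sample overlapped a WT sample for these members.

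Gm4673, Gm28424 and 4930578M07Rik had lower WT levels than the members above and larger fold changes. In WT S0 cells Gm4673 still lay above the median member, which stood at 3.09 and 2.71 CPM. Gm4673, which starts beside the transcription factor gene Usf2, measured 6.82 and 5.48 CPM in WT against 49.98 and 49.36 CPM in KO S0 cells (log2 3.01, edgeR adjusted p = 2.56e-07). Gm28424, beside U2surp, a gene for a U2 snRNP-associated protein, went from 1.41 and 0.62 CPM to 25.1 and 25.4 CPM (log2 4.595, edgeR adjusted p = 1.02e-06). 4930578M07Rik, beside Nutf2, which encodes the nuclear import factor for Ran, went from 0.19 and 0.23 CPM to 8.29 and 8.31 CPM (log2 5.26, edgeR adjusted p = 4.4e-06). Gm28424 and 4930578M07Rik stayed under 2 CPM in the WT libraries of both lines and passed the limit through KO libraries, so the size of their rise is partly set by the choice. The same holds for Gm34121 and A930001C03Rik.

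Other members rose in S0 cells as well. Gm34121, beside the ubiquitin ligase gene Herc2, went from 0.34 and 0.17 CPM to 8.82 and 6.53 CPM (log2 4.86, edgeR adjusted p = 1.43e-05). E130317F20Rik, beside the splicing regulator gene Ptbp1, went from 7.98 and 6.61 CPM to 56.8 and 56.8 CPM (log2 2.95, edgeR adjusted p = 1.78e-07). B930036N10Rik, beside Alyref2, went from 7.06 and 4.13 CPM to 23.7 and 28.1 CPM (log2 2.19, edgeR adjusted p = 5.4e-05). In all 3 both KO samples were above both WT samples; Gm34121 had means of 0.48 CPM in the WT libraries of either line, so that it is a member through its KO libraries.

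A930001C03Rik had 2 counts over the WT samples and 703 over the KO samples of dis3 S0 cells, a ratio of 364 with an exact 95% counting interval of 101 to 3015. In S1, S2, S3 and pooled S4 and S5 cells of that line no WT count was seen. Against a floor of 3 counts over the WT group, the KO level was at least 58.2-fold higher in S1, 98.7-fold in S2, 18.1-fold in S3 and 39.1-fold in S4 and S5. Intervals and floors cover counting error only. Its means over the WT libraries of the dis3 and exs10 lines were 0.11 and 0.13 CPM, so it entered the set through the KO libraries and the choice bears on these folds in both lines.

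Several of the most abundant members were not called in dis3 S0 cells. Cct6a, a locus named after a chaperonin gene but given a non-coding biotype in M21, had a log2 fold change of −0.12 (edgeR adjusted p = 0.352). Tug1, a nuclear lncRNA beside Morc2a, had −0.11 (edgeR adjusted p = 0.397). Brip1os, beside the DNA repair helicase gene Brip1, measured 55.6 and 58.0 CPM in WT against 60.6 and 65.8 CPM in KO (log2 0.15, edgeR adjusted p = 0.295). Tmem134 and B230354K17Rik were not called either, with log2 values of 0.01 and 0.28.

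Zfas1, a host gene of box C/D snoRNAs beside Znfx1, was the 1 member called lower in dis3 S0 cells, at 59.0 and 56.5 CPM in WT against 43.8 and 47.1 CPM in KO (log2 −0.35, edgeR adjusted p = 0.0268). That call was lost when the WT sample of libraries 1 and 3 was left out (log2 −0.36) and when the WT sample of library 2 was (log2 −0.39). It measured 11.97 and 13.02 CPM in WT against 23.4 and 18.6 CPM in KO S4 and S5 cells (log2 0.77, edgeR adjusted p = 0.00943), a call lost without the KO sample of libraries 1 and 3 (log2 0.58). Exons of Zfas1 and Cct6a overlap snoRNA genes on the same strand. Whether snoRNA reads enter their counts was not tested.

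**Figure D2:**
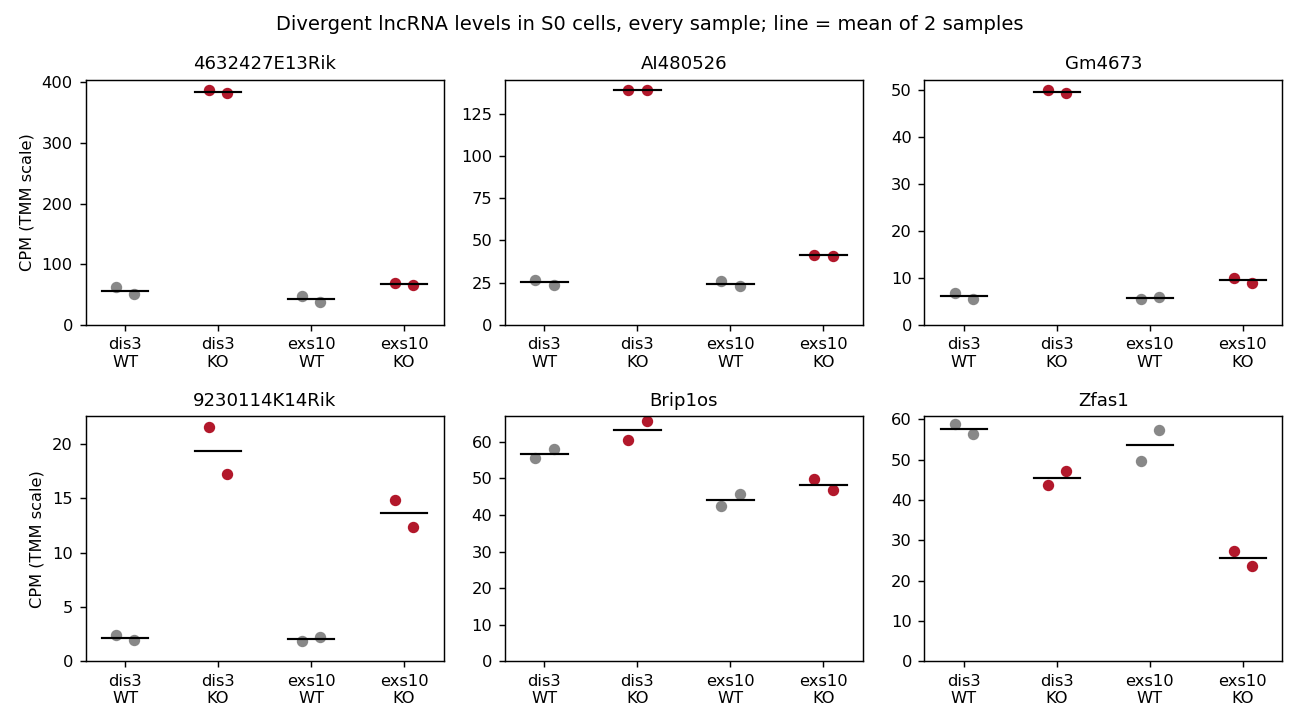
Levels of 6 divergent lncRNAs in S0 cells, in CPM on the TMM scale of each comparison, with 1 point per sample (grey WT, red KO) and a line at the mean of 2 samples. 4632427E13Rik goes from 61.6 and 51.1 CPM to 387 and 383 CPM in the dis3 line, 9230114K14Rik separates KO from WT in both lines, Brip1os lies within 42.4 to 65.8 CPM in all 8 samples and Zfas1 is lower in KO of both lines.

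Many members were called in several dis3 populations. Among the 84 chosen without that line, 29 were called higher in all 5 sorted populations, or 34.5% against 2.81% of the genes tested, and 20 in none, or 23.8% against 63.6%. In at least 1 sorted population 14 of the 84 were called lower, or 16.7% against 33.4%. Of the 134, 60 were called higher in all 5 sorted populations, 22 in 4, 12 in 3, 8 in 2 and 12 in 1, and 20 in none. In 46 of the 60 the rise was also called in total liver. A log2 fold change above 0 in all 6 comparisons was seen in 85 members. For the counts of 46 and 85 the share of all genes is not given here, so they cannot be set against a background. Counts over the 134 are a description, since the members were chosen on the average of these libraries.

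Counts differed with the number of exons in the longest annotated transcript. Among the 84 chosen without the dis3 line, 26 of 31 tested with a single exon in that transcript rose in S0 cells (median log2 2.62). Of 49 with more exons in it, 29 rose and 1 fell, with a median of 1.21. For pooled S4 and S5 cells the counts were 27 of 30 (median 1.95) and 25 of 50 with 6 falls (median 0.81). By their level in the exs10 WT libraries, 21 of 28 in the lowest tertile by level rose in S0 cells, 19 of 26 in the middle tertile and 15 of 26 in the highest, with medians of 1.52, 2.17 and 1.06. Pairs with separate starts had 29 of 44 members higher in S0 cells and none lower, and pairs with overlapping starts 26 of 36 higher and 1 lower, with medians of 1.67 and 1.52. Exons overlapped another gene in 90 of all members (88 on the opposite and 15 on the same strand, some on both). Of the chosen members without exon overlap, 12 of 22 tested rose in S0 cells and 0 fell. Their median was 1.07, against 1.65 for all chosen. It was 0.79 against 1.21 in S1, 0.92 against 1.09 in S2 and 0.41 against 0.39 in S3 cells. For pooled S4 and S5 cells it was 1.22 against 1.36, and in total liver 0.05 against 0.21. Differences between these classes were not tested.

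Most coding partners of members were not called in sorted dis3 cells, and their calls went in both directions. Of 131 partners tested in S0 cells, 14 rose and 19 fell (10.7% and 14.5%, against 18% and 13% of all genes), with a median log2 fold change of −0.08. In S1 cells 23 of 129 rose and 26 fell, or 17.8% and 20.2%, in S2 cells 9 of 130 rose and 4 fell, or 6.92% and 3.08%, and in S3 cells 16 of 128 rose and 32 fell, or 12.5% and 25%. For pooled S4 and S5 cells 33 of 126 rose and 17 fell, or 26.2% and 13.5%. In total liver 15 of 131 rose and 46 fell, or 11.5% and 35.1%, where 26.5% and 24.2% of all genes did. Of the 102 risen members whose partner was tested, 11 had a partner that rose, 11 had one that fell and 80 had one that was not called; the median was 2.69 for these members and −0.03 for their partners. In S1 cells 19 partners of 97 risen members rose and 19 fell, in S2 cells 6 and 2 of 85, in S3 cells 12 and 13 of 61, and in S4 and S5 cells 28 and 11 of 91.

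Single pairs show both cases. Rab30 measured 1.46 and 1.07 CPM in WT against 1.42 and 1.38 CPM in KO S0 cells (log2 0.14, edgeR adjusted p = 0.867), while its divergent 4632427E13Rik rose. Setd1b went from 161 and 151 CPM to 92.4 and 86.0 CPM (log2 −0.80, edgeR adjusted p = 0.000101), the opposite direction to AI480526. Usf2, Dhx15 and U2surp were not called in S0 cells, with log2 values of −0.15, −0.02 and 0.07. For S4 and S5 cells Rab30 and Setd1b both rose, with log2 values of 0.90 (edgeR adjusted p = 0.000448) and 0.80 (edgeR adjusted p = 9.9e-05).

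Per kilobase of exon, the lncRNA of a pair stood at a median of 13.1% of its partner's level in WT S0 cells of the dis3 line and at 75.9% in KO cells. It was above its partner in 16 of 130 pairs in WT and in 57 of 132 in KO. The medians went from 13.9% to 43.3% in S1, from 12.6% to 45.1% in S2, from 14.8% to 27.4% in S3, from 12.6% to 53.0% in S4 and S5 and from 12.6% to 22.4% in total liver. In the exs10 line they went from 14.6% to 17.9% in S0 cells and from 11.9% to 13.7% in total liver. These levels are over pairs of all members. The CPM limit was set on the lncRNA and not on the partner, and it favours lncRNAs that are high in the KO. The percentages and counts of pairs are therefore a description, partly set by the choice.

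The ratio within a pair was tested directly with limma on log2 values with a pseudocount of 0.5 counts, adjusted over all head-to-head pairs of the annotation. Among the pairs of the 84 members chosen without the dis3 line, the ratio of lncRNA to partner rose in 54 of 77 in dis3 S0 cells and fell in 1, with a median change of 1.78, where it rose in 33.2% and fell in 10.7% of all head-to-head pairs. It rose in 52 of 79 pairs in S1 (33.5% of all pairs), 44 of 80 in S2 (22.8%), 28 of 79 in S3 (17.1%), 40 of 76 in S4 and S5 (31.5%) and 25 of 81 in total liver (21%). Falls numbered 2, 1, 5, 5 and 7 in the same order, against 14.3%, 7.12%, 8.76%, 13.5% and 11.2% of all pairs. Pairs of 2 coding genes changed in either direction in 27.7% of cases in S0, 34.9% in S1, 15.5% in S2, 20.3% in S3, 36% in S4 and S5 and 33% in total liver. For 4632427E13Rik over Rab30 the change was 2.61 (limma adjusted p = 0.000212), and for AI480526 over Setd1b 3.28 (limma adjusted p = 0.000212). For Brip1os over Brip1 it was 0.73 (limma adjusted p = 0.0108), with Brip1 going from 46.5 and 44.8 CPM to 29.0 and 32.4 CPM. Over all member pairs, where the CPM limit on the lncRNA but not on the partner favours a rise, the ratio rose in 103 of 127 in S0 cells with a median of 2.29. Of all member pairs, changes in the ratio in either direction fell from 64 to 14 in total liver without the KO sample of libraries 1 and 3 and to 23 without that of libraries 2 and 4, and from 64 to 23 and 19 in S3 cells without either WT sample.

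**Figure D3:**
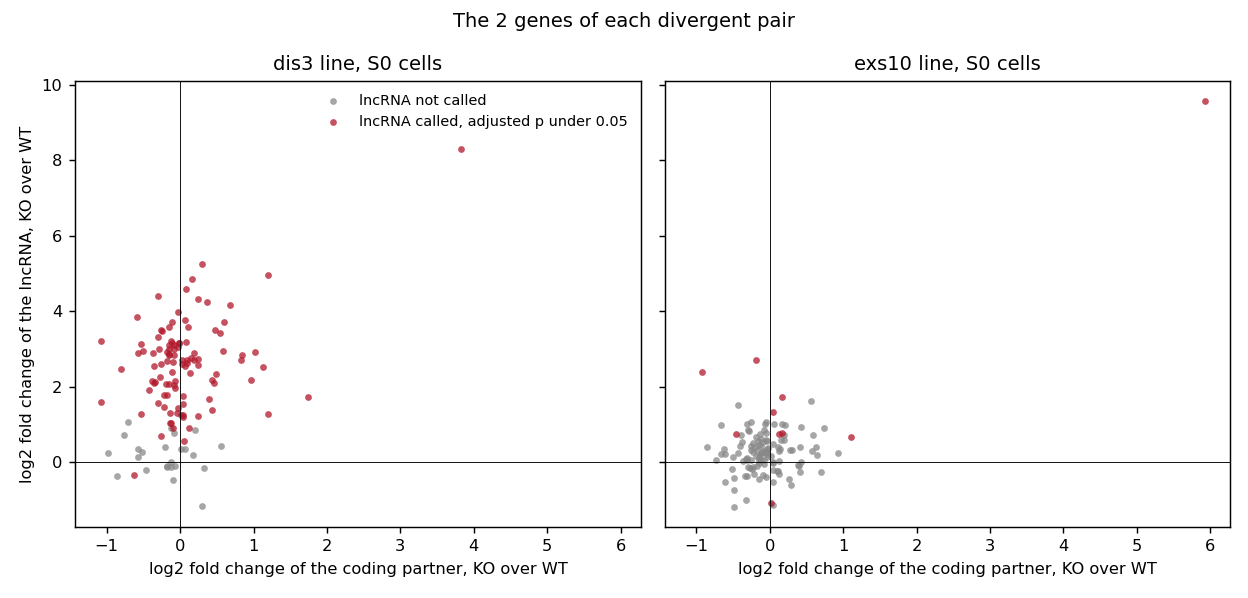
Each point is a divergent pair in S0 cells, with the log2 fold change of the coding partner on the horizontal axis and that of the lncRNA on the vertical axis, for the dis3 line (left, 127 pairs) and the exs10 line (right, 123 pairs); red points are lncRNAs called at an adjusted p under 0.05. The dis3 points form a column above 0 on the vertical axis and around 0 on the horizontal one, and the isolated point at the top right of each panel is that of A930001C03Rik.

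In the exs10 line few divergent lncRNAs rose. Among 88 lncRNAs of the position rule chosen by the WT libraries of the dis3 line, 6 rose and 1 fell of 82 tested in S0 cells, where 8.84% of all genes rose and 4.63% fell. In S1 cells 7 of 86 rose and 7 fell (15.2% and 15.5% of all genes), in S2 cells 8 of 86 rose and 4 fell (11.6% and 9.86%), and in S3 cells 8 of 87 rose and 12 fell (16.8% and 17.2%). For pooled S4 and S5 cells 6 of 85 rose and 4 fell (7.63% and 7.52%). In total liver 12 of 88 rose and 27 fell, below and near the 31.4% and 31% of all genes. These shares were near or under the background in each comparison.

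Over all members, 9 rose and 1 fell of 126 in S0, 8 and 6 of 127 in S1, 9 and 4 of 127 in S2, 14 and 12 of 127 in S3, 8 and 4 of 120 in S4 and S5, and 29 and 29 of 133 in total liver. The median log2 fold changes were 0.27, 0.08, 0.09, 0.00, 0.44 and −0.02. The summed level of the members was 1169 and 1136 CPM in WT against 1237 and 1192 CPM in KO S0 cells. These counts rested on few samples. For S4 and S5 cells 40 members rose without the KO sample of library 1 and 33 without that of libraries 2 and 3, but 4 without the WT sample of library 1 and 3 without that of libraries 2 and 3. In S0 cells the count was 15 without the KO sample of library 1 and 4 without the WT sample of libraries 2 and 3; in S2 cells it was 17 without the KO sample of library 1, in S1 cells 4 and 5 without either WT sample, and in S3 cells 8 without the WT sample of libraries 2 and 3.

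Some members rose in both lines. Calls were higher in both for 8 members in S0 cells, 7 in S1, 8 in S2 and 8 in S3. The number was 7 in pooled S4 and S5 cells and 22 in total liver. Members called higher in the exs10 line numbered 9, 8, 9, 14, 8 and 29 in the same order. These counts over all members are a description, and the share of all genes called in both lines is not given here. 9230114K14Rik, beside Dhx15, the gene of an RNA helicase that takes spliceosomes apart, measured 2.39 and 1.92 CPM in WT against 21.5 and 17.2 CPM in KO S0 cells of the dis3 line (log2 3.17, edgeR adjusted p = 3.25e-06). In exs10 S0 cells it went from 1.83 and 2.20 CPM to 14.8 and 12.4 CPM (log2 2.71, edgeR adjusted p = 0.000543). KO samples lay above WT samples in both lines, as they did for 34.4% of all genes tested in dis3 and 29.7% in exs10 S0 cells. It was called higher in S1, S2 and pooled S4 and S5 cells of both lines as well, and in exs10 total liver it measured 4.76 to 6.02 CPM in WT against 6.64 to 8.01 CPM in KO (log2 0.42, edgeR adjusted p = 0.0153), a call lost without the WT sample of library 2 (log2 0.34) or the KO sample of libraries 2 and 4 (log2 0.33).

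A930001C03Rik had no count in the WT samples of exs10 S0, S1 and S2 cells and was at least 53.6-fold, 23.2-fold and 21.6-fold higher in their KO samples, against 3 counts over the WT group. Ptprv, the gene of a receptor-type phosphatase induced by p53 in mouse, carries a non-coding biotype in M21 and starts beside Ptpn7. It measured 40.2 and 33.4 CPM in WT against 63.0 and 63.0 CPM in KO S0 cells of the exs10 line (log2 0.79, edgeR adjusted p = 0.00579), and 21.76 and 18.02 CPM in WT against 51.0 and 40.3 CPM in KO of the dis3 line (log2 1.21, edgeR adjusted p = 0.000156).

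Among the leading dis3 members the exs10 changes in S0 cells were small beside those of the dis3 line. 4632427E13Rik went from 47.3 and 37.9 CPM to 68.2 and 66.0 CPM in exs10 S0 cells (log2 0.67, edgeR adjusted p = 0.0141), and AI480526 from 26.0 and 22.9 CPM to 41.6 and 40.8 CPM (log2 0.76, edgeR adjusted p = 0.00743). Both calls were lost without the WT sample of libraries 2 and 3, with log2 values of 0.50 and 0.66. Gm4673 measured 5.38 and 5.97 CPM in WT against 10.03 and 8.903 CPM in KO and was not called (log2 0.72, edgeR adjusted p = 0.077). Zfas1 fell from 49.8 and 57.4 CPM to 27.4 and 23.8 CPM (log2 −1.08, edgeR adjusted p = 0.00172). Other populations differed from S0 cells. In total liver 4632427E13Rik had log2 values of 0.94 in the dis3 and 0.87 in the exs10 line, Gm4673 1.93 and 1.41, and AI480526 0.23 and 0.04. AI480526 rose in exs10 S4 and S5 cells from 32.8 and 32.0 CPM to 66.8 and 67.4 CPM (log2 1.05, edgeR adjusted p = 0.00364). In exs10 S0 cells the ratio to the partner rose in 5 of 123 pairs and fell in 1, against 2.75% and 3.14% of all pairs; with the KO sample of library 1 left out 15 changed, and with that of libraries 2 and 3 left out 11. For pooled S4 and S5 cells limma called no pair of 116 (0% of all pairs), with 22 at an unadjusted p under 0.05, 57 pairs called without the KO sample of libraries 2 and 3 and 13 without that of library 1.

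The 2 lines were compared by an interaction of line and genotype in edgeR. The CPM limit includes the KO libraries of the dis3 line, in which many members were high, so that a choice without any KO library is given first: 80 members had at least 2 CPM in the WT libraries of each line. The test compares signed log2 changes, so a larger change in the dis3 line means a larger rise or a smaller fall there. Such a call can also come from a fall in the exs10 line. Cep83os in S1 cells had log2 values of 0.17 in the dis3 and −1.16 in the exs10 line (edgeR interaction adjusted p = 0.0278). In S0 cells the signed change was larger in the dis3 line for 40 of 76 of them tested (median difference 1.33 log2 units). In that direction 3.33% of all genes were called. The count was 34 of 79 in S1 (3.2% of all genes), 27 of 80 in S2 (1.8%), 7 of 80 in S3 (0.997%), 15 of 80 in S4 and S5 (3.51%) and 8 of 80 in total liver (0.578%). Over all members, as a description, it was 76 of 130 in S0 (median difference 1.85), 70 of 132 in S1, 45 of 132 in S2, 14 of 132 in S3, 29 of 134 in S4 and S5 and 17 of 134 in total liver. By edgeR no member was called with a larger rise or smaller fall in the exs10 line in any population. At an unadjusted edgeR p under 0.05 there were 2, 3, 0, 3, 2 and 2 in the same order of populations. Of all genes, 3.92%, 0.822%, 0.413%, 0.414%, 3.5% and 0.441% were called in that direction. For 4632427E13Rik the difference in S0 cells was 2.09 (edgeR adjusted p = 6.67e-05), for AI480526 1.70 (edgeR adjusted p = 0.000109) and for Gm4673 2.28 (edgeR adjusted p = 0.000215). For 9230114K14Rik it was 0.45 (edgeR adjusted p = 0.543), and for Ptprv 0.41 (edgeR adjusted p = 0.321). The target transcripts were left at different levels in the 2 lines, so the size of the difference cannot be told apart from the remaining amount of each gene product.

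**Figure D4:**
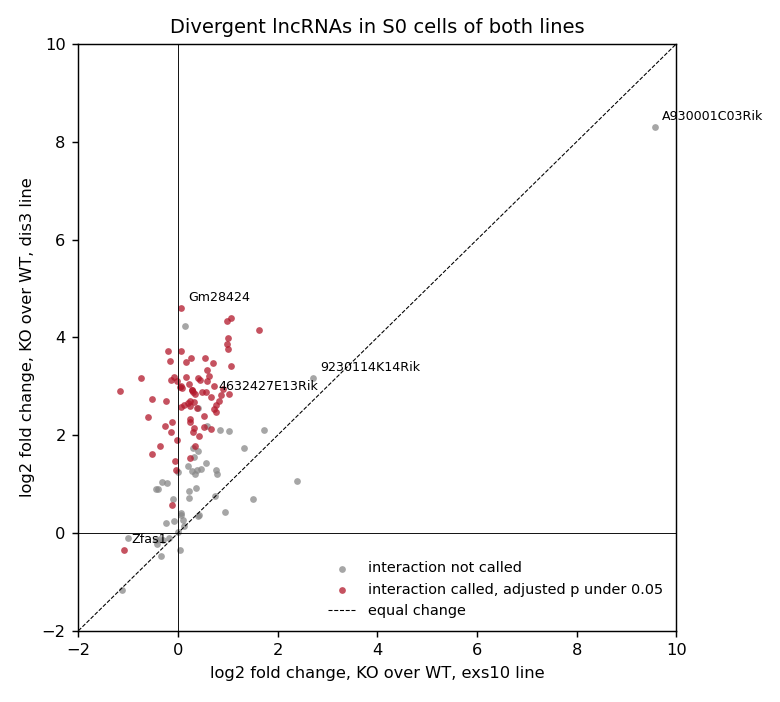
Each point is a divergent lncRNA tested in S0 cells of both lines, with the log2 fold change of KO over WT in the exs10 line on the horizontal axis and in the dis3 line on the vertical axis; red marks members whose change differed between lines at an adjusted p under 0.05, and the dashed line marks equal change. Most points lie above the dashed line, 9230114K14Rik lies near it, and A930001C03Rik, with WT levels at or near 0, lies at the far corner.

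Interaction counts over all members also moved with single samples. In S2 cells the count was 14 and 21 without the dis3 WT samples, 26 and 16 without the exs10 WT samples and 29 and 18 without the exs10 KO samples. For S4 and S5 cells it rose to 52 and 60 without the exs10 KO sample of library 1 or of libraries 2 and 3. It was 19 there without the dis3 WT sample of library 2, 14 without the dis3 KO sample of libraries 1 and 3 and 18 without the exs10 WT sample of library 1. In S1 cells it was 46 and in S3 cells 9 without the WT or the KO sample, respectively, of libraries 1 and 3 of the dis3 line. In total liver it ran from 7 to 11 without any of dis3 WT libraries 1 and 2, exs10 WT library 2, the exs10 WT sample of libraries 3 and 4, and exs10 KO libraries 1 and 3.

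Some members fell in the KO. 2500002B13Rik, beside the Sin3 complex gene Sap30, fell in S4 and S5 cells from 21.03 and 23.66 CPM to 6.79 and 5.82 CPM in the dis3 line (log2 −1.80, edgeR adjusted p = 7.44e-06) and from 18.95 and 20.76 CPM to 6.24 and 6.22 CPM in the exs10 line (log2 −1.67, edgeR adjusted p = 0.0052). 2610027K06Rik, beside the T-box gene Tbx2, went from 11.8 and 12.9 CPM to 6.17 and 4.80 CPM in dis3 S4 and S5 cells (log2 −1.14, edgeR adjusted p = 0.00298). In the exs10 line it went from 16.66 and 14.02 CPM to 5.46 and 4.93 CPM (log2 −1.57, edgeR adjusted p = 0.0103), a call lost without the WT sample of library 1 (log2 −1.46). KO samples lay below WT samples in these comparisons. The same held for 37.5% of all genes tested in dis3 and 32.7% in exs10 S4 and S5 cells.

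4933431E20Rik, beside the glutathione transferase gene Gstm5, fell in S1 cells from 26.0 and 28.1 CPM to 13.02 and 10.92 CPM in the dis3 line (log2 −1.15, edgeR adjusted p = 1.56e-05) and from 25.2 and 25.4 CPM to 14.5 and 11.8 CPM in the exs10 line (log2 −0.98, edgeR adjusted p = 8.48e-06). In total liver, Ttc39aos1 fell from 18.30 to 25.02 CPM in 4 WT samples to 5.69 and 9.25 CPM in dis3 KO (log2 −1.45, edgeR adjusted p = 1.46e-05), and from 13.9 to 15.7 CPM to 4.65 to 7.31 CPM in exs10 KO (log2 −1.36, edgeR adjusted p = 6.18e-06). Gm16538, beside Ehbp1l1, fell in exs10 total liver from 10.9 to 11.1 CPM to 3.48 to 4.02 CPM (log2 −1.54, edgeR adjusted p = 3e-07). In S3 cells, where it was more abundant, Ttc39aos1 was not called in either line, with log2 values of −0.21 and 0.00.

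Gm20628, at the duplicated histone cluster beside the H2B gene Hist2h2bb, fell in whole liver of both lines and rose in the sorted cells of the exs10 line. It fell in total liver of the dis3 line from 12.5 to 18.8 CPM to 3.94 and 5.97 CPM (log2 −1.65, edgeR adjusted p = 6.88e-06), and of the exs10 line from 8.0001 to 11.6 CPM to 3.21 to 4.48 CPM (log2 −1.20, edgeR adjusted p = 5.39e-05). It rose in exs10 S1 cells from 0.94 and 0.90 CPM to 6.50 and 7.22 CPM (log2 2.91, edgeR adjusted p = 2.27e-07), and was called higher in the other sorted populations of that line with log2 values from 1.34 in S3 to 2.39 in S0 cells. In the dis3 line it was called higher in S1 and in pooled S4 and S5 cells and not in S0, S2 and S3, where the S3 value was 0.02. Reads shared by near-identical histone copies make its level uncertain. Hist2h3b, which lies wholly inside it on the other strand, had 177610 counts over all libraries against 5561 for Gm20628, so strands were counted apart. The Gm20628 counts came to 3.13% of those of Hist2h3b. A small leak of opposite-strand histone reads into them cannot be told apart from its own reads and was not tested.

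In WT cells alone the members differed among the 5 sorted populations in 101 of 132 tested for the dis3 line, and 103 of 132 for exs10 (edgeR adjusted p under 0.05), against 88.7% and 86.4% of all genes. The highest mean was in S0 cells for 33 members of the dis3 line, in S1 for 14, in S2 for 9, in S3 for 44 and in S4 and S5 for 34. In the exs10 line the numbers were 34, 13, 13, 29 and 45. Levels here are on the scale of each line's WT samples.

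A few divergent lncRNAs appeared late in maturation. Ttc39aos1 had means of 0.25 CPM in S0, 61.8 CPM in S3 and 82.8 CPM in S4 and S5 cells of the dis3 line, and 0.21, 53.5 and 120 CPM in the exs10 line. Gm16538 rose from 0.08 CPM in S0 to 28.003 CPM in S3 and 14.05 CPM in S4 and S5 cells of the dis3 line, and from 0.06 to 22.9 and 29.1 CPM in the exs10 line, so that its highest population differed between lines. 2610027K06Rik reached 18.8 and 26.8 CPM in S4 and S5 cells, and 2500002B13Rik 34.0 and 34.7 CPM. Ptprv was highest in S1 cells, at 17.0 CPM in the dis3 and 30.2 CPM in the exs10 line, and 4933431E20Rik in S2 cells, at 24.7 and 24.5 CPM.

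**Figure D5:**
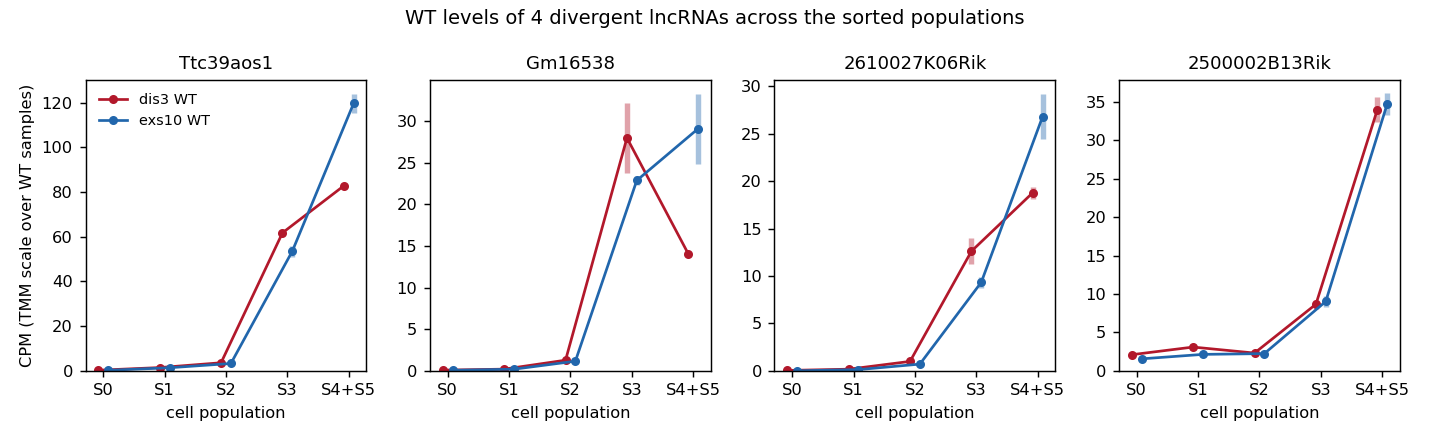
Mean CPM of 4 divergent lncRNAs in the WT samples of the sorted populations, for the dis3 line (red) and the exs10 line (blue); the thick bars span the 2 samples of a group. Each is low in S0, S1 and S2 cells and reaches its highest mean in S3 or in pooled S4 and S5 cells, from 14.05 to 120 CPM in the latter.

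The factors that process divergent transcripts were called in both directions in sorted cells of the dis3 line. The list held 44 genes for exosome subunits and cofactors, NEXT and PAXT components, Integrator and termination factors, of which 41 were tested in each comparison. In dis3 S0 cells 4 of 41 rose and 5 fell (median log2 −0.09), where 18% and 13% of all genes did. In exs10 S0 cells 3 of 41 fell and the median was −0.22, where 4.63% of all genes fell. In exs10 total liver 3 of 41 rose and 27 fell (median −0.24), where 31.4% and 31% of all genes did. In dis3 total liver 11 of 41 fell (median −0.14), where 24.2% of all genes did. Markers of other cells moved with genotype in the sorted fractions too: in dis3 S0 cells 4 of 5 macrophage markers tested and 6 of 6 B lymphoid markers fell, and 5 of 6 late erythroid markers rose. Vcam1 and C1qa, both macrophage markers, were at 0 in the dis3 KO samples. The sum of 6 macrophage markers went from 162 to 174 CPM to 17.1 to 22.4 CPM, that of 6 B lymphoid markers from 196 to 239 CPM to 29.6 to 31.3 CPM, and that of 6 late erythroid markers from 31.5 to 35.3 CPM to 119 to 161 CPM. In exs10 S0 cells 1 of 6 macrophage and 5 of 6 B lymphoid markers fell and 4 of 6 late erythroid markers rose. The same sums went from 55.6 to 82.9 CPM to 18.4 to 35.1 CPM, from 197 to 220 CPM to 18.6 to 28.9 CPM, and from 55.0 to 59.5 CPM to 103 to 324 CPM. Hepatocyte markers rose as well: 4 of 5 tested in exs10 S0 cells (median log2 4.68; summed level 24.04 to 33.6 CPM in WT against 60.5 to 909 CPM in KO) and 4 of 5 in exs10 S2 cells (11.5 to 13.2 CPM against 111 to 114 CPM). In dis3 S0 cells 3 of 5 rose (16.9 to 17.1 CPM against 34.4 to 46.8 CPM), and in exs10 total liver 6 of 6 rose (29560 to 37648 CPM against 52112 to 71112 CPM). In exs10 S1 cells 2 of 4 fell. Their part in the changes of the members was not tested.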

How the data were processed

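The deposited files hold raw read counts per gene, 1 table per library for 76 libraries. Per the submitters' processing notes the tools were HISAT2 2.1.0, Subread with featureCounts 1.6.4, R 3.5.1 and DESeq2 1.20.0, and the build GRCm38; per the labels' protocols the kit keeps strand. Gene IDs were joined to GENCODE M21, where 49326 of them were found; 259 were not (0.0483% of counts). Promoter windows came from RefSeq, which held one for 72 members and 109 partners.

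Libraries of a group whose counts gave a chi-square per degree of freedom under 1.5 were summed (24 of 84 pairs, 1.077 to 1.327; the other pairs of a group lay at 2.798 or above). Library totals ran from 4662194 to 30412636 counts; Gm26917 and Gm42418 took 5.26% to 61.42% of them. That depth sets the precision of members near the CPM limit.

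KO was compared with WT by edgeR 4.0.16's quasi-likelihood test in R 4.3.3 (filterByExpr, TMM, Benjamini-Hochberg over all genes, adjusted p under 0.05), within each line and population. CPM values are on the TMM scale of a comparison, and SE is the fold change over the root of F. The line by genotype interaction and the WT populations used the same tool, and pair ratios limma 3.58.1. DESeq2 1.42.0, RLE scaling, no filter, separate libraries, the replicate number as a block and leaving out samples were alternatives. Scripts were tested on simulated data. Members and gene lists were chosen with earlier results of these data known. Members were named if among the 10 most abundant, among the largest called rises or falls of a comparison with a mean of at least 5 CPM in the higher group, on a roster of known lncRNAs, among the largest interactions in S0 cells or total liver, or nearest the limit. The coding partner of A930001C03Rik is not reported here.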

Additional observations from a re-analysis of the deposited data

Results flagged for a closer look

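In dis3 WT total liver, 1 of 4 samples stood apart from the other 3 for 4 of 44 members or sums tested; chance flags about 1 in 20. The gap to the nearest sample, as a share of the range, was 0.865 for A230072C01Rik (1.36 CPM against 0.66 to 0.75 CPM), 0.972 for B930036N10Rik (0.83 CPM against 0.66 CPM), 0.862 for Gm28424 (0.22 CPM against 0.31 to 0.33 CPM) and 0.934 for Gm9484 (0.44 CPM against 0.95 to 0.99 CPM). The sample was not the same throughout: library 1 for A230072C01Rik, library 3 for B930036N10Rik and library 4 for Gm28424 and Gm9484. Library 4 had the lowest total, 4662194 counts, and levels this low rest on few reads there.

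The KO effect differed between the dis3 and exs10 lines, by the interaction test in edgeR at an adjusted p under 0.05, in 17 members in total liver, 76 in S0, 70 in S1, 45 in S2, 14 in S3 and 29 in pooled S4 and S5 cells. The largest differences in S0 cells were 6.07 log2 units for Gm34121, which was measured at 1.15 CPM or less in the exs10 samples, and 4.55 for Gm28424. In total liver they were 2.74 for 4930578M07Rik and 2.58 for B930036N10Rik. Gm34121, Gm28424 and 4930578M07Rik stayed under 2 CPM in the WT libraries of both lines and are members through KO libraries, so the choice favours a large difference in them. Among the 80 members with at least 2 CPM in the WT libraries of each line, 8, 40, 34, 27, 7 and 15 were called in total liver, S0, S1, S2, S3 and pooled S4 and S5 cells.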

How the results depend on the processing

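RLE scaling, leaving out Gm26917 and Gm42418, and a pseudocount of 2 counts for the ratio moved no count of risen members, interactions or changed ratios they were tried on by more than 1.5 times, and RLE and DESeq2 scaling shifted the median of all genes by at most 0.0202 log2 units. In the dis3 line no alternative test, filter or scaling moved a count of risen members by that much. With every library as its own sample 28 members rose in exs10 S0, 20 in S2 and 28 in S4 and S5 cells, and the interaction counts were 29 in total liver, 78 in S2, 39 in S3 and 65 in S4 and S5 cells; libraries that share a sample make such p-values too small. With no low-count filter 15 rose in exs10 S2 cells, and 26 and 31 members differed between lines in total liver and S3 cells. DESeq2 called 4 rises in exs10 S1 and 9 in S3 cells; it moved the share of rises among calls from 69.2% to 87.5% in exs10 S2 cells. Choice by the WT libraries of the other line lowered the share of tested members that rose from 47.8% to 31.0% in dis3 and from 21.8% to 13.6% in exs10 total liver, and without the CPM limit it was 4.05% in exs10 S1 cells. Of the 12 counts of fallen members, 6 moved by over 1.5 times with DESeq2, 5 with separate libraries, 3 with no filter, 2 with the block, 1 with RLE and 1 without the abundant pair of genes. The causes were not tested.

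Leaving out 1 sample at a time left an arm with 1 sample in sorted cells, which is then assumed to vary like the other group. In the order total, S0, S1, S2, S3 and pooled S4 and S5 cells, rises then ran from 49 to 66, 97 to 112, 93 to 102, 68 to 105, 53 to 67 and 77 to 91 in the dis3 line, and from 21 to 27, 4 to 15, 4 to 6, 6 to 17, 8 to 13 and 3 to 40 in the exs10 line. After the data were seen, the same was done for the other tests. Interactions ran from 7 to 14, 59 to 75, 46 to 69, 14 to 61, 9 to 15 and 14 to 60. Changed ratios ran from 14 to 79, 79 to 102, 83 to 103, 62 to 90, 19 to 47 and 60 to 77 in the dis3 line and from 32 to 43, 6 to 15, 3 to 21, 2 to 14, 0 to 16 and 0 to 57 in the exs10 line. Choosing members by WT libraries, also added later, moved no share of interactions or changed ratios by over 1.5 times. Members that differed among WT populations ran from 97 to 106 and from 94 to 107.

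Of 251 calls of named members none reversed; 26 were lost with DESeq2, 1 with RLE and 4 with no filter. Leaving out 1 sample at a time was the setting that cost most: 57 of the 251 were lost without at least 1 sample, in 112 of 1123 refits. The labels do not say what a replicate number means, and each sorted comparison has 2 pairs after summing. Correlations of same-numbered deviations over those pairs ran from −0.248 in exs10 S0 to 0.208 in dis3 S2 cells. With the replicate block 104 members rose in dis3 S0 cells and 9 in exs10 S0 cells, no count of risen members moved by over 1.5 times, and 6 of 190 calls of named members in sorted cells were lost. Setting A930001C03Rik at its bound did not change a median.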
